A study of Mus musculus with 6 samples.

Results

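In these peak lists 267 microRNA (miRNA) genes had an NRF2 peak within 50 kb of their annotated start. They were all genes whose name in the authors' peak annotation begins with Mir and a digit, or with Mirlet, and that were the nearest gene to a peak at that distance or less in any of 4 lists. They held 442 peaks, out of 10579 peaks of 6513 genes within the same distance and 16057 peaks of 8030 genes at any distance. Membership was therefore chosen from the same peaks that are described here, and the counts below are descriptions without tests. The members nearest to the limit were Mir3099 at 48248 bp, Mir378c at 48996 bp and Mir7237 at 49207 bp, and the first peaks beyond it were assigned to Mir3110 at 50128 bp, Mir148a at 50185 bp and Mir598 at 50630 bp. A further 67 miRNA names had peaks past the limit alone.

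The cells were mouse embryonic fibroblasts of strain 129S6/SvEvTac, either wild type (WT) or GCN2-/- (KO), which lack the kinase encoded by Eif2ak4. Growth was in complete DMEM, or in DMEM from which leucine was left out, for 24 h, and chromatin was immunoprecipitated with an antibody to NRF2. Each of the 4 combinations was 1 library with 1 peak list, and the 2 input libraries came from complete medium, 1 per genotype. With a single library behind each list, differences between them could not be set against replicates, and no test was run. Peak lists do not measure expression, so neither the labelled cell type nor the loss of GCN2 was checked here.

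NRF2, encoded by Nfe2l2, is a transcription factor that KEAP1 marks for degradation and that drives antioxidant and detoxification genes under stress. GCN2 is a kinase that senses uncharged transfer RNA when an amino acid is lacking. An miRNA is cut from a hairpin in a longer primary transcript by the nuclease DROSHA with its partner DGCR8, trimmed by DICER1 and loaded onto an Argonaute protein, where its seed, bases 2 to 8, pairs with target messenger RNAs. Many hairpins lie in introns of protein-coding genes and are transcribed from the host's promoter. The start from which distances are measured here is the end of the annotated hairpin, not the start of the primary transcript: 407 of 438 peaks with a gene in the RefSeq gene table (GRCm38.p6) had a distance that matched the hairpin's place there within 1 bp. A peak nearest to an miRNA gene is thus a statement of position only.

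The mature sequences of the members on which the results turn are given from RefSeq (GRCm38.p6), 5′ to 3′, with the seed in capitals. The first set is the let-7 seed, shown because 5 member genes share it (Mirlet7a-1, Mirlet7b, Mirlet7i, Mir98 and Mir1961).
mmu-let-7b-5p: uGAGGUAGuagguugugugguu
mmu-let-7i-5p: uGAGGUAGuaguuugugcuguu
mmu-let-7a-5p: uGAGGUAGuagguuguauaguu
mmu-miR-98-5p: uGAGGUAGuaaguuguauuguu
mmu-miR-1961: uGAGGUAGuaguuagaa

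The second set holds 1 arm each of miRNAs whose NRF2 site was found in all 4 lists.
mmu-miR-5132-5p: gCGUGGGGugguggacucagg
mmu-miR-7237-5p: aUGGUAGCuugugacaggacuggc
mmu-miR-6995-5p: cUGGGAGUagaagggggaaacca
mmu-miR-6996-5p: uGCACAGGacagagcacaguc
mmu-miR-7223-5p: uAGCUUUGcugaggugucgg
mmu-miR-760-3p: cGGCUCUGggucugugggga

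The third set holds well-studied miRNAs whose site was found in both WT lists and in neither KO list.
mmu-miR-21a-5p: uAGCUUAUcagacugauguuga
mmu-miR-22-3p: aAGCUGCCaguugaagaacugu
mmu-miR-29b-3p: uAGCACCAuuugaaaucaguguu

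The fourth set holds members from a list of miRNAs of the NRF2 and KEAP1 axis, and the relative miR-193a that shares the seed of miR-193b. Being on that list does not show that a member acts on NRF2 or KEAP1.
mmu-miR-200a-3p: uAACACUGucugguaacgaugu
mmu-miR-200b-3p: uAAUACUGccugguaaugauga
mmu-miR-27b-3p: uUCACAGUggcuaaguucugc
mmu-miR-153-3p: uUGCAUAGucacaaaagugauc
mmu-miR-193b-3p: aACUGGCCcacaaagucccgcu
mmu-miR-193a-3p: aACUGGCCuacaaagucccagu

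The lists differed in length, and the number of miRNA genes followed. WT cells in complete medium gave 2336 peaks and 57 miRNA genes, WT cells without leucine 5980 peaks and 148 miRNA genes, KO cells in complete medium 3141 peaks and 85 miRNA genes, and KO cells without leucine 4600 peaks and 93 miRNA genes. As a share of all genes with a peak within 50 kb, miRNA genes made up 3.98% (exact Clopper-Pearson 95% interval 3.03 to 5.13), 4.31% (3.66 to 5.05), 4.69% (3.76 to 5.76) and 3.71% (3.01 to 4.53) in the same order. The 4 intervals overlapped one another; they cover counting error only. With every list cut to its 2336 highest-scoring peaks, the miRNA genes numbered 57, 56, 62 and 45, so that the list of WT cells without leucine no longer held the most.

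**Figure D1:**
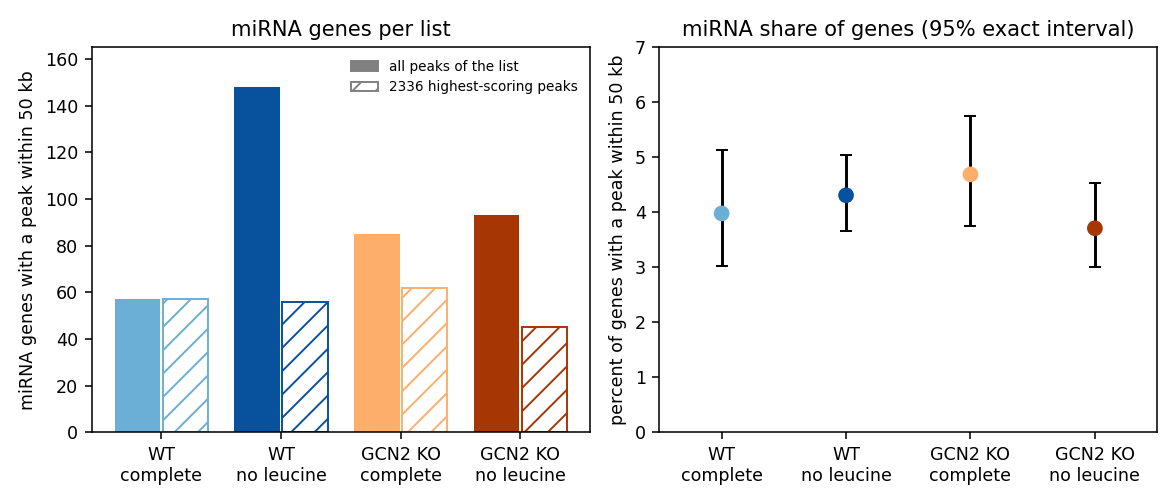
Left, the number of miRNA genes with a peak within 50 kb in each of the 4 lists, for all peaks (filled bars) and for the 2336 highest-scoring peaks (hatched bars). Right, miRNA genes as a percent of all genes with a peak within 50 kb, with exact 95% intervals; the points lie between 3.71% and 4.69% and the intervals overlap.

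Of the members, 189 (70.8%) were in 1 list, 52 (19.5%) in 2, 14 (5.24%) in 3 and 12 (4.49%) in all 4. Over all 6513 genes the shares were 71.8%, 19.0%, 5.71% and 3.52%. The 78 miRNA genes in 2 or more lists (29.2%) stood beside 28.2% of all genes, so recurrence of the gene name was near the background. The same gene name did not mean the same site. Sites were joined where 300 bp peak windows of different lists overlapped by at least 1 bp, and 24 of the 78 genes (30.8%) had such a shared site, while 54 (69.2%) had peaks in different places in different lists. This share was not computed over all genes in 2 or more lists, so it is not read as particular to miRNA genes. Of the 442 miRNA peaks, 374 (84.6%) were at a site of 1 list alone, against 82.6% of all peaks within 50 kb.

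Of these sites, 9 were found in all 4 lists. The highest-scoring lay 24133 bp downstream of Mir5132 on the X chromosome, in a window annotated as intergenic (73999315 to 73999615, mm10, WT complete medium). Mir5132 itself lies within Irak1, a kinase gene of Toll-like receptor and interleukin-1 signalling. Its peak in WT cells scored 523 in complete medium (rank 21 of 2336) and 221 without leucine (rank 92.5 of 5980), and in KO cells 219 in complete medium (rank 54 of 3141) and 272 without leucine (rank 47.5 of 4600). Tied scores share a mean rank. The rank was between 0.899% and 1.72% of the list length in every list, so this site stayed among the highest in all 4 groups. Scores are set against each other only within a list, because their scale and the read depth behind them are not given in the sources used here. Ranks are printed side by side to place a site within each list; as the lists differ in length, a lower rank percent in a longer list shows no change in binding.

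The Mir7237 site lay in intron 5 of 13 of Banp, which encodes a nuclear DNA-binding protein, 12857 bp from the hairpin in the same gene (chromosome 8, 121990731 to 121991031, same list). Its rank in WT cells was 5.37% of the list in complete medium and 2.25% without leucine, and in KO cells 2.48% and 1.95%. It was among the highest 6% in each list. The Mir6995 site lay in intron 9 of 13 of Sh3pxd2a, which encodes a podosome scaffold protein, 8808 bp from the hairpin (chromosome 19, 47282247 to 47282547), with ranks of 9.08% and 6.10% in WT and 2.82% and 6.40% in KO cells in the same order. All 4 were in the highest 10%.

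Mir6996 lies in Notch1, which encodes a receptor of cell-to-cell signalling. Its site lay at the border of the last intron and the last exon of that gene (chromosome 2, 26460805 to 26461105, same list): the window was annotated to exon 34 of 34 in WT cells in complete medium and to intron 33 of 33 in the 3 others, which were shifted by less than the width of a window. The ranks were 38.3%, 5.48%, 51.7% and 9.29%. The site was in the highest 10% of both lists without leucine and near the middle of both others. Mir7223, in Prkca (protein kinase C alpha), had its site in a B3 SINE in intron 9 of 16 (chromosome 11, 107985910 to 107986210), with ranks of 36.2%, 4.70%, 12.8% and 6.60%. Here too the site was in the highest 10% of both lists without leucine alone, which are the longer lists in each genotype.

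The Mir760 site lay 2090 bp upstream of the hairpin, in a window annotated as intergenic (chromosome 3, 122295643 to 122295943), with ranks of 10.6%, 4.06%, 14.0% and 7.25%. All 4 values were in the upper part of their lists. As at the sites in Notch1 and Prkca, only those of the lists without leucine were in the highest 10%. The site of Mirlet7b, a member of the let-7 family that restrains growth genes in differentiated cells, lay 1308 bp downstream of the hairpin in an ORR1A3 LTR element (chromosome 15, 85708477 to 85708777). It ranked at 10.6%, 5.13%, 9.49% and 6.22%, a narrower spread than at the sites in Notch1 and Prkca. The Mir6360 site was annotated as a transcription termination site, which in HOMER's terms is a window around the 3′ end of a transcript, and ranked at 44.2%, 7.09%, 10.5% and 22.8%; the hairpin lies within Mapre2, a microtubule end-binding protein gene.

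The ninth site, in an RMER19C LTR element on chromosome 1, was assigned to Mir7652 and ranked at 5.91%, 7.18%, 2.48% and 2.99%. The RefSeq gene table places Mir7652 on chromosome 11, and the window was annotated to intron 1 of 2 of the miRNA gene's own transcript. Its mature sequence is therefore not shown, and the nearest gene of this window is uncertain. Over all genes within 50 kb, 28.4% of sites found in 2 or more lists were in all 4, and among the 24 of miRNA genes 9 (37.5%) were.

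**Figure D2:**
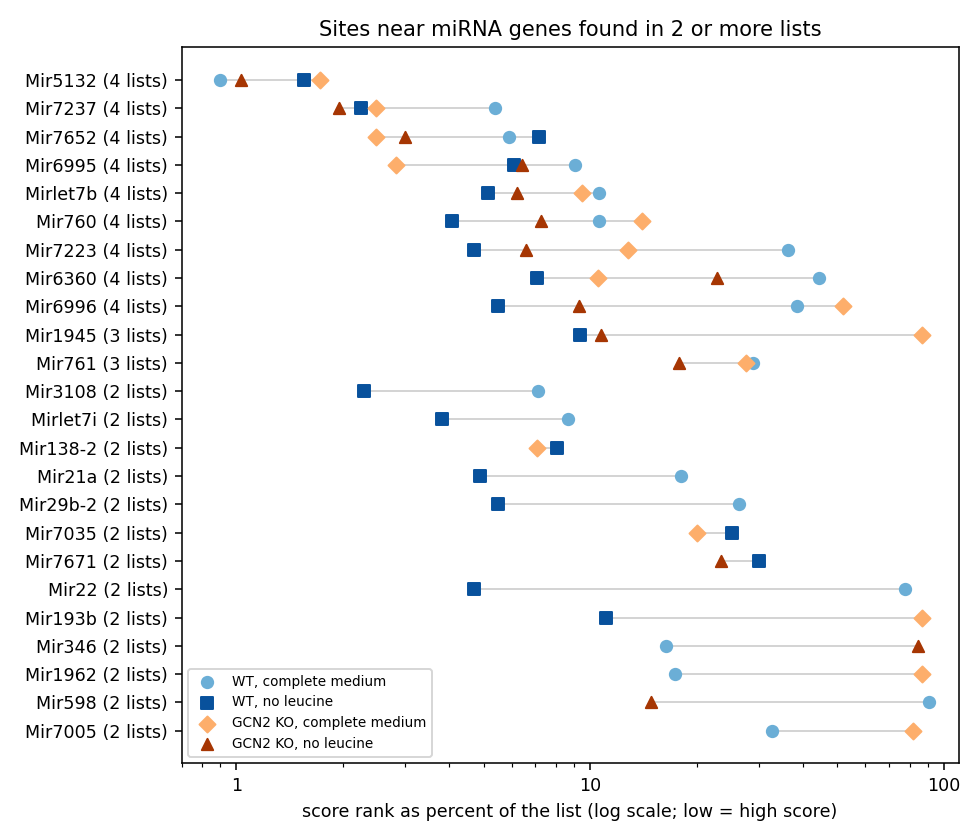
Score rank as a percent of the list length (log scale, low values are high scores) at the 24 sites near miRNA genes found in 2 or more lists, 1 marker per list in which the site was found. The site of Mir5132 lies between 0.899% and 1.72% in all 4 lists, while those of Mir22 and Mir193b run from high to low ranks.

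A pair of sites was in 3 lists. That of Mir1945, in a B3A SINE 16355 bp from the hairpin, ranked at 9.36% in WT cells without leucine, 86.5% in KO cells in complete medium and 10.7% in KO cells without leucine; the list of WT cells in complete medium had no peak within 185683 bp. That of Mir761, in a B3A SINE in intron 7 of 30 of the peptidase gene Nrd1, ranked at 28.8% in WT cells in complete medium, 27.6% in KO cells in complete medium and 17.8% in KO cells without leucine, and the nearest peak of WT cells without leucine was 226797 bp away.

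The next 5 sites (20.8% of the 24, against 16.3% of all shared sites within 50 kb) were in both WT lists and in neither KO list, among them those of Mir22, Mir21a, Mir29b-2 and Mirlet7i. Mir22, a broadly expressed miRNA that is processed from the non-coding host Mir22hg, had a site annotated as its promoter on chromosome 11, at -554 bp in complete medium (75463012 to 75463312) and at -624 bp without leucine (75462942 to 75463242). It scored 28 in complete medium (rank 1810.5 of 2336, 77.5%) and 112 without leucine (rank 281 of 5980, 4.70%). The site was near the bottom of the first list and near the top of the second. In the KO lists the nearest peaks were 79460 bp and 79416 bp away, both assigned to Smyd4.

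Mir21a, an miRNA raised in fibrosis and many tumours, lies at the end of Vmp1, an autophagy gene in the reticulum membrane. Its site was in intron 7 of 11 of Vmp1, 30091 bp upstream of the hairpin (chromosome 11, 86614099 to 86614399 in complete medium), and ranked at 18.1% in complete medium and 4.87% without leucine. KO cells without leucine had a separate peak in intron 8 of 11, 26476 bp upstream of the hairpin and 3622 bp from the WT site, with a rank of 64.9%, and the nearest peak of KO cells in complete medium was 421758 bp away. Vmp1 thus held a peak in 3 of the 4 lists, in 1 intron in WT cells and in another in KO cells.

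Mir29b-2, of the miR-29 family that represses collagen genes, had its site 2858 bp upstream of the hairpin in exon 8 of 8 of the non-coding gene A330023F24Rik (chromosome 1, 195034032 to 195034332). It ranked at 26.3% in complete medium and 5.48% without leucine, with the nearest KO peaks 2136935 bp (complete medium) and 321537 bp (without leucine) away. Mirlet7i had its site 6078 bp downstream of the hairpin in a B3 SINE (chromosome 10, 122979496 to 122979796), ranked at 8.63% and 3.81%. Mir3108 had its site in intron 4 of 9 of Zfhx3, a homeobox transcription factor gene, at exactly the same window in both lists (chromosome 8, 108896522 to 108896822), ranked at 7.11% and 2.30%. In rank percent all 5 stood higher without leucine, in a list that was longer. Counted as ranks, Mir22, Mir21a (423.5 and 291), Mir29b-2 (615.5 and 327.5) and Mir3108 (166 and 137.5) stood higher without leucine and Mirlet7i (201.5 and 228) lower.

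The other 8 shared sites were in 2 lists each. WT cells without leucine shared 3 with KO cells in complete medium (12.5% of the 24, against 8.14% of all shared sites within 50 kb). The Mir138-2 site in intron 6 of 22 of the nuclear pore gene Nup93 ranked at 8.04% and 7.07%, the Mir7035 site in intron 19 of 20 of Rasa4 at 25.1% and 20.1%, and the Mir193b site in the 3′ UTR of Mrtfb, a coactivator of serum response factor, at 11.1% and 86.5%. WT and KO cells in complete medium shared the Mir1962 site in intron 1 of 20 of the phosphatase gene Ptpre (17.4% and 86.5%) and the Mir7005 site in exons of the laminin gene Lama5 (32.7% and 81.6%). These 2 sites were 8.33% of the 24, against 1.96% of all shared sites. WT cells in complete medium and KO cells without leucine shared the Mir346 site in intron 2 of 15 of Grid1 (16.4% and 84.2%) and the Mir598 site in intron 1 of 2 of Xkr6 (90.9% and 14.9%). These 2 were likewise 8.33%, against 4.37%. Both lists without leucine alone shared the promoter window of Mir7671, at -583 bp, ranked at 30.1% in WT and 23.5% in KO cells; among all shared sites within 50 kb this pattern made up 10.4%. None of the 24 was in both KO lists alone, against 9.05% of all shared sites. Of the 24 sites, 7 were in repeat elements and 13 were over 10 kb from the hairpin.

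Shared sites scored higher than the rest. The median rank of miRNA peaks was 61.1% for the 374 at a site of 1 list, 17.8% for the 26 at a site of 2 lists, 22.7% for the 6 at a site of 3 and 6.31% for the 36 at a site of 4; of all peaks within 50 kb, 7.03% were at a site of 4 lists. Over all peaks within 50 kb the medians were 55.8%, 21.9%, 9.81% and 4.34%, the same direction. Per list, 19 of 61 miRNA peaks of WT cells in complete medium overlapped a peak of another list (31.1%, exact 95% interval 19.9 to 44.3, against 28.9% of all peaks within 50 kb). In WT cells without leucine it was 19 of 178 (10.7%, 6.55 to 16.2, against 13.1%), in KO cells in complete medium 16 of 98 (16.3%, 9.63 to 25.2, against 20.2%) and in KO cells without leucine 14 of 105 (13.3%, 7.49 to 21.4, against 15.5%). Each interval held the value of all peaks.

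Median ranks of miRNA peaks in WT cells were 44.2% with leucine (exact 95% interval 28.8 to 63.8) and 50.4% without it (50.4 to 62.2). In KO cells they were 59.4% (45.0 to 72.7) and 55.3% (39.8 to 62.7). All peaks within 50 kb had medians of 50.6%, 50.4%, 51.7% and 55.3%, inside these intervals. In the highest-scoring 10% of each list stood 6, 20, 11 and 8 miRNA peaks, or 9.84%, 11.2%, 11.2% and 7.62% of them, beside 11.0%, 9.95%, 11.1% and 10.9% of all. Scores were heavily tied: 913 peaks of WT cells without leucine scored 30, so small differences of rank in the middle of a list have no meaning.

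**Figure D3:**
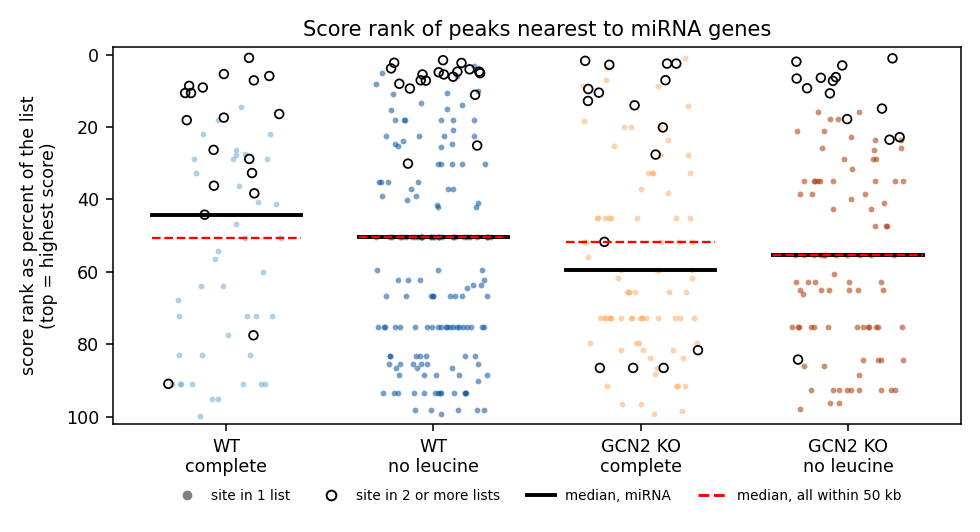
Score rank of each miRNA peak as a percent of its list (top is the highest score; points are spread sideways only for legibility) in the 4 lists. Open circles are sites found in 2 or more lists, which gather toward the top; solid lines are medians of miRNA peaks (44.2%, 50.4%, 59.4% and 55.3%) and dashed lines those of all peaks within 50 kb.

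The highest-scoring sites of 1 list alone were few. Mir3082 in KO cells in complete medium had a pair of peaks on chromosome 17, at -676 bp (25831954 to 25832254, score 287, rank 31 of 3141) and at 481 bp (25830797 to 25831097, score 135, rank 114.5), on either side of the hairpin. The hairpin lies where the spans of Jmjd8 and Stub1, a ubiquitin ligase gene of protein quality control, meet. No other list had a peak of Mir3082. Mir1971 had an intergenic peak at 30504 bp in WT cells without leucine (chromosome 14, 78160824 to 78161124, score 149, rank 183.5 of 5980). Next by rank percent were Mir1929, in an intron of the autophagy gene Atg5 in WT cells without leucine (4.99%), Mir6367, in an intron of Ahnak in the same list (5.79%), and Mir133c, in an intron of the Mediator gene Med27 in KO cells in complete medium (7.07%). The gene table places Mir6367 on another chromosome than its peaks, so that assignment is uncertain.

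A peak within 1 kb of the hairpin start was found for 5 miRNA peaks (8.20%) in WT cells with leucine, 22 (12.4%) in those without, 12 (12.2%) in KO cells in complete medium and 7 (6.67%) in KO cells without leucine. All peaks within 50 kb had 7.08%, 7.63%, 5.79% and 5.79% this close. The exact 95% intervals of the miRNA shares were 2.72 to 18.1, 7.91 to 18.1, 6.49 to 20.4 and 2.72 to 13.3 in this order. Those of WT cells without leucine and KO cells in complete medium lay above the value of all peaks, and the others held it. Within 10 kb the miRNA shares were 36.1%, 51.1%, 50.0% and 40.0%, and those of all peaks 38.8%, 40.8%, 40.0% and 37.6%. Within 10 kb the miRNA share was above that of all peaks in WT cells without leucine (exact 95% interval 43.5 to 58.7). In KO cells with leucine the interval (39.7 to 60.3) and in KO cells without it the interval (30.6 to 50.0) held the value of all peaks, and in WT cells with leucine the miRNA share was the lower one. Of 407 windows with a matching place, 12 (2.95%) overlapped the hairpin itself, those of Mir103-2, Mir181d, Mir1900, Mir27b, Mir3544, Mir5126, Mir6236, Mir6956, Mir6986, Mir6990, Mir7001 and Mir7217.

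The sites of Mir6360, Mir22 and Mir7671 were the only ones within 1 kb found in more than 1 list. The others, apart from Mir3082, had ranks between 23.9% and 98.1%. Mir103-2, whose family acts in lipid and insulin metabolism, had a window at -8 bp in KO cells without leucine (34.8%). Mir181d, of a family of lymphocyte miRNAs, had one at -55 bp in WT cells without leucine (37.0%), and Mir26a-2 one at -292 bp in the same list, annotated to the promoter of its host gene Ctdsp2 (93.5%). Windows near Mir23a (-498 bp, 72.7%, KO cells in complete medium) and Mir27b (172 bp, 50.4%, WT cells without leucine) were annotated to the promoters of the neighbouring hairpins Mir27a and Mir24-1 of the same clusters. Mir3544 (3 bp, 32.8%) was annotated likewise to Mir665.

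Mir378b, Mir6236 and Mir7032 had such windows in WT cells in complete medium, at ranks of 63.8%, 50.6% and 72.3%. Mir5122 (32.8%), Mir6401 (65.5%), Mir6955 (38.2%), Mir7044 (91.6%) and Mir7685 (65.5%) had them in KO cells in complete medium. Mir5046 (31.6%), Mir6986 (92.6%) and Mir7217 (88.5% and 75.1%) had them in KO cells without leucine. In WT cells without leucine the others were Mir1900, Mir3079, Mir5126, Mir671, Mir6915, Mir6922, Mir6956, Mir6990, Mir7001, Mir7029, Mir7031, Mir7218, Mir7230, Mir7235, Mir7243 and Mir7672. Their ranks lay between 23.9% for Mir6990 and 98.1% for Mir671 and Mir7218. The gene table places Mir3079 on another chromosome than its peak, so that assignment is uncertain. Most of these high-numbered miRNAs have no role that is well established.

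Members of the let-7 family by name were 5: Mirlet7a-1, Mirlet7b, Mirlet7i, Mirlet7j and Mirlet7bhg, the last of which is the host gene of a let-7 cluster and not a hairpin. Beside the sites of Mirlet7b and Mirlet7i above, Mirlet7a-1 had a peak at -10216 bp in WT cells in complete medium (36.2%), and Mirlet7j (28834 bp, 61.6%) and Mirlet7bhg (-39926 bp, 72.7%) in KO cells in complete medium. Of the other carriers of the let-7 seed, Mir98, in the ubiquitin ligase gene Huwe1, had a peak at 38053 bp in KO cells in complete medium with a rank of 8.63%, in an MLT2B3 LTR element. Mir1961 had one in intron 1 of 10 of Shroom3 in the same list, at 72.7%. Mirlet7b also had a separate peak 6178 bp downstream in a B2_Mm2 SINE in WT cells without leucine, at 10.1%. The let-7b site was the only one of these in all 4 lists.

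Among 19 miRNA genes listed for the NRF2 and KEAP1 axis, 6 were members. The list of WT cells in complete medium held 2 of them, WT cells without leucine 4, KO cells in complete medium 3 and KO cells without leucine 0. Mir200a, known to repress Keap1, had a pair of windows at -154 bp and 347 bp in KO cells in complete medium, ranked at 72.7% and 79.7%, the second annotated to the neighbouring Mir429. Mir200b of the same cluster had a peak at -21469 bp in WT cells without leucine (98.1%). Mir153, reported to repress NRF2, had peaks in 3 lists at 3 separate places in and at the end of its host Ptprn2, ranked at 90.9% in WT cells with leucine, 50.4% in those without and 27.6% in KO cells in complete medium. Mir193b and Mir27b are given above, and Mir193a, with the seed of Mir193b, had 2 intergenic peaks at -15446 and -14265 bp in WT cells without leucine (93.5% and 75.3%). The peak of Mir28a (90.9%, WT cells in complete medium) lay on a chromosome other than the one where the gene table places it. None of these ranked in the top 10% of its list.

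Of 21 genes listed for fibroblasts and fibrosis 3 were members, Mir21a, Mir29b-2 and Mir199b, the last with a single peak in the 3′ UTR of Golga2 in WT cells without leucine (88.4%). Of 7 erythroid and hematopoietic miRNA genes only Mir146 was, with an intergenic peak at 13286 bp in KO cells without leucine (21.1%). Of 11 genes of the growth-promoting miR-17 type clusters none was. Of all 1178 miRNA genes of this kind of name in the RefSeq table, 265 (22.5%) had a peak within 50 kb. This set is not quite that of the members, of which 263 of 267 matched the RefSeq table by name. Nothing particular to the short miRNA lists is read from their counts. These lists were drawn up with earlier results of the same data known.

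Members with peaks in several lists at different places had no shared site to compare. Mir1932, Mir3075 and Mir7214 were in all 4 lists in this way. The 5 peaks of Mir1932, near Rnf213, lay between -8347 and 46327 bp with ranks of 23.5% to 83.7%, and the 4 peaks of Mir3075 were spread over its host Zmiz1 with ranks of 38.4% to 91.6%. In 3 lists were Mir153, Mir378b, Mir6932, Mir7044 and Mir7210 (both WT lists and KO complete), Mir6403 (both WT lists and KO without leucine), Mir6236 (WT complete and both KO lists), and Mir6401, Mir7217 and Mir7218 (WT without leucine and both KO lists). In both lists without leucine were Mir128-2, Mir1928, Mir3060, Mir3085, Mir3088, Mir378c, Mir5046, Mir5098, Mir5108, Mir5127, Mir5128, Mir684-1, Mir6912, Mir7001, Mir7030, Mir7072, Mir7230, Mir7662 and Mir8108. In WT cells without leucine and KO cells in complete medium were Mir133c, Mir152, Mir1899, Mir194-2, Mir1953, Mir23a, Mir3074-2, Mir33, Mir486, Mir6404, Mir6955, Mir6956, Mir7215 and Mir7243. The remaining pairs were Mir692-1, Mir7028 and Mir7677 (both WT lists), Mir3094 and Mir8095 (both complete-medium lists), Mir455 and Mir6364 (both KO lists) and Mir1936 (WT complete and KO without leucine).

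In all, 50 of 267 members (18.7%) had more than 1 peak in a list, a share that was not computed over all genes. The densest were the neighbours Mir7214, Mir7217 and Mir7218 on chromosome 17, where 19 peaks lay within 111974 bp (27293606 to 27405579), 2 and 6 of them in WT cells with and without leucine and 4 and 7 in KO cells with and without it. None overlapped a peak of another list, and no other gene was assigned a peak in the span. The ranks ran from 15.2% to 98.1%, so none was near the top. Mir7218 had 3 peaks in each list without leucine, and Mir7028, elsewhere, had 3 in WT cells in complete medium.

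**Figure D4:**
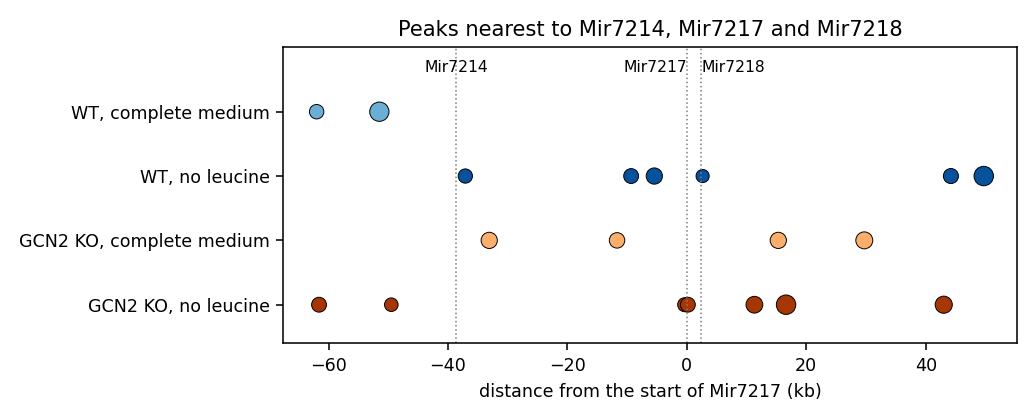
Peaks assigned to Mir7214, Mir7217 and Mir7218 on chromosome 17 in each list, by distance of the window's centre from the start of Mir7217 (kb); dotted lines mark the 3 annotated starts and larger points have a higher score. The 2, 6, 4 and 7 peaks lie at different places in the 4 lists.

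Fewer windows than among all peaks were intergenic or in repeats over the pooled lists. Of the 442 miRNA peaks, 124 (28.1%, exact 95% interval 23.9 to 32.5) were intergenic against 36.5% (35.6 to 37.5) of all peaks within 50 kb, and 80 (18.1%, 14.6 to 22.0) lay in a repeat element against 23.9% (23.1 to 24.7). Windows at a transcription termination site numbered 29 (6.56%, 4.44 to 9.29, against 2.42%), and at a promoter 27 (6.11%, 4.06 to 8.76, against 3.42%). An annotated hairpin is shorter than a window, so a window just past its start is also at its end. Introns held 220 peaks (49.8%, 45.0 to 54.5, against 47.9%), exons 24 (5.43% against 6.50%), 3′ UTRs 15 (3.39% against 2.28%) and 5′ UTRs none, which allows up to 0.831%, against 0.350%. The repeats were SINE elements in 41, LTR elements in 28 and LINE elements in 11 peaks. All peaks include those of the miRNA genes, and windows at a shared site are counted once per list. The pooled intervals treat these windows as independent.

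**Figure D5:**
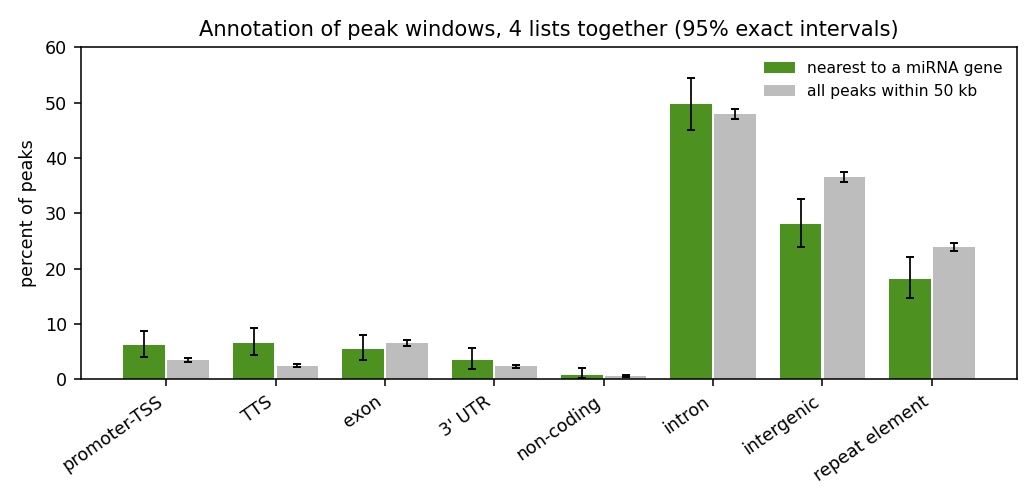
Percent of windows in each annotation class except 5′ UTR, the 4 lists together, for the 442 peaks nearest to miRNA genes and for all 10579 peaks within 50 kb (bars from 0, exact 95% intervals). Repeat windows are a class that overlaps intron and intergenic. The intergenic bars stand at 28.1% and 36.5%, with intervals that do not overlap.

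By list, intergenic windows made up 31.1% of miRNA peaks of WT cells with leucine (19.9 to 44.3), against 36.7% of all peaks, and 22.5% without it (16.6 to 29.3), against 34.2%. In KO cells they made up 29.6% (20.8 to 39.7, against 36.1%) and 34.3% (25.3 to 44.2, against 40.2%). The intergenic share was below that of all peaks in each list, but the interval left out the value of all peaks only in WT cells without leucine. Repeat windows made up 18.0% (9.36 to 30.0, against 24.2%) and 16.3% (11.2 to 22.6, against 21.7%) in WT cells with and without leucine. In KO cells their shares were 18.4% (11.3 to 27.5, against 23.7%) and 21.0% (13.6 to 30.0, against 26.9%). Each of these repeat intervals held the value of all peaks. In or at a transcript lay 318 of the 442 peaks (71.9%). Of the 242 member genes at their place in the gene table, 205 (84.7%) have a hairpin inside another gene, as Mir6996 in Notch1, Mir7223 in Prkca, Mir21a in Vmp1 and Mir3108 in Zfhx3. The genes with such a host had 332 peaks, of which 203 (61.1%) were annotated to that host. The rest were not annotated to it, which does not place them outside it. The window of Mir103-2, for example, overlapped the hairpin inside Pank2 but was annotated to the hairpin's own transcript. The GC content of the windows had medians of 51.8%, 52.8%, 52.8% and 53.2%, close to the 51.8%, 52.5%, 52.5% and 52.2% of all peaks within 50 kb.

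For 21 members with 30 peaks the gene table places the gene on another chromosome than the peak. They were Mir1191, Mir1928, Mir28a, Mir297c, Mir3079, Mir3110, Mir3470b, Mir3473a, Mir3473f, Mir378c, Mir3963, Mir3965, Mir467f, Mir5120, Mir5128, Mir6364, Mir6367, Mir6412, Mir684-1, Mir7652 and Mir7667. The assignment of these peaks is uncertain, and 6 of the 21 are among the 78 genes in 2 or more lists. By name, 4 members had no match there (Mir1957a, Mir692-2b, Mirlet7bhg and Mirlet7j).

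Leucine withdrawal in WT cells was compared by the presence of miRNA genes in the 2 WT lists. Of 179 in either list, 26 were in both (14.5%, against 14.9% of all genes), 122 only without leucine (68.2%, against 66.2%) and 31 only in complete medium (17.3%, against 19.0%). In KO cells, of 157 genes 21 were in both (13.4% against 16.8%), 72 only without leucine (45.9% against 50.9%) and 64 only in complete medium (40.8% against 32.3%). KO against WT in complete medium gave 118 genes, 24 in both (20.3% against 14.1%), 61 in KO alone (51.7% against 49.7%) and 33 in WT alone (28.0% against 36.3%). Without leucine, of 203 genes 38 were in both (18.7% against 17.9%), 55 in KO alone (27.1% against 31.8%) and 110 in WT alone (54.2% against 50.3%). The share furthest from that of all genes was the 40.8% in complete medium alone in KO cells, against 32.3%. Nearly as far was the 28.0% in WT alone in complete medium, against 36.3%. The others were closer to the background. With every list cut to 2336 peaks the splits were 38 without leucine alone and 39 in complete medium alone in WT cells, and 33 and 50 in KO cells, so the direction seen with whole lists was not kept in either genotype. Each list enters 2 of the 4 comparisons. A gene missing from a list had no peak above the authors' threshold there, which does not show that NRF2 was absent.

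At the level of sites, 14 miRNA genes had the same site in both WT lists, 11 in both KO lists, 12 in both complete-medium lists and 11 in both lists without leucine. Each count includes the 9 sites of all 4 lists. The same counts over all genes are not given here, so nothing about genotype or medium is read from the differences between these counts. The sites of Mir5132, Mir7237, Mir6995, Mirlet7b, Mir760, Mir7223, Mir6996 and Mir6360, with that assigned to Mir7652, were present with and without leucine in cells of both genotypes.

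Of 22 genes that make, export or use miRNAs, 4 (18.2%) had a peak within 50 kb, beside 26.0% of the 21900 protein-coding genes of the RefSeq table. None had one in the lists of WT cells in complete medium or of KO cells without leucine. Drosha, the nuclease of the first cut, had a peak at 3307 bp in WT cells without leucine near the bottom of that list (rank 5288.5 of 5980). Dgcr8, its RNA-binding partner, had one at -11376 bp in WT cells without leucine (rank 716.5 of 5980) and another in KO cells in complete medium (rank 2877.5 of 3141). The Argonaute gene Ago1 had one in WT cells without leucine (rank 4505 of 5980), and Ago2, the Argonaute that cuts its target, one at -41426 bp in KO cells in complete medium (rank 737 of 3141). None of these sites was in a second list.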

How the data were processed

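NRF2 ChIP-seq libraries of mouse embryonic fibroblasts (WT or GCN2-/-, with or without leucine, 1 library each) were deposited as annotated peak lists. Reads were single and 50 bp long, per the labels' protocols. The submitters' processing notes name BWA 0.7.12, MACS2 2.1.0, HOMER 4.7 and mm10. Per the file headers, each library's peaks were called against its own genotype's input, which came from complete medium also for cells without leucine. The peak score is a whole number deposited by the authors, with a scale that the sources used here do not give. The CpG and GC fraction of each window and the distance to the nearest start are the authors' deposited values. Read depth is unknown.

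From these, ranks within each list (1 is the highest score, ties at the mean rank, given as a percent of list length), sites (windows overlapping by at least 1 bp) and exact intervals were computed with Python 3.11.15, pandas 2.3.3 and scipy 1.17.1. Intervals of shares and limits at a count of 0 are exact Clopper-Pearson at 95%. Intervals of median ranks are exact binomial ones at 95%, read from the ordered values. All cover counting error only. The counting code was tested on simulated lists. Host genes and hairpin places came from RefSeq (GRCm38.p6), in which 263 of 267 gene names matched, and 224 had a hairpin entry. Named are members in 2 or more lists, the 5 highest-scoring per list, members within 1 kb of a start, members of the miRNA groups, members with more than 1 peak in a list, where they stand out by rank or number, and pathway genes. Motifs were not searched, as no genome was used here. A pair of miRNA genes is not reported here. The members and lists were chosen with earlier results of these data known.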

Additional observations from a re-analysis of the deposited data

Results flagged for a closer look

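The measures below moved one way between complete medium and no leucine in WT cells and the opposite way in KO cells. Each rests on 1 library per group, and no difference was tested. The miRNA share of genes with a peak within 50 kb was higher without leucine by 0.330 percentage points in WT cells and changed by -0.980 in KO cells, a gap of 1.31. The median rank of miRNA peaks changed by 6.20 percentage points in WT and -4.10 in KO cells, a gap of 10.3; a higher value is a lower score. All peaks within 50 kb had median ranks of 50.6% and 50.4% in WT and 51.7% and 55.3% in KO cells, with and without leucine. Peaks within 10 kb of the hairpin changed by 15.0 percentage points in WT and -10.0 in KO cells, a gap of 25.0, and those within 1 kb by 4.20 and -5.53, a gap of 9.73. All peaks also moved in opposite directions within 10 kb, from 38.8% to 40.8% in WT and from 40.0% to 37.6% in KO cells; within 1 kb they stood at 7.08% and 7.63% in WT and at 5.79% in both KO lists. Intergenic windows changed by -8.60 percentage points in WT and 4.70 in KO cells, a gap of -13.3, and intron windows by 6.30 and -0.400, a gap of 6.70. Among all peaks intergenic windows likewise went from 36.7% to 34.2% in WT and from 36.1% to 40.2% in KO cells, and intron windows from 48.4% to 48.7% and from 48.8% to 45.9%. The opposite directions in these classes and within 10 kb are thus not particular to miRNA genes.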

How the results depend on the processing

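Of 97 values under other settings, 59 stayed within the set limits and 38 moved; 4 comparisons and 4 lists were recomputed, and list order is WT complete, WT without leucine, KO complete, KO without leucine. At 10 kb in place of 50 kb, miRNA genes numbered 22, 82, 45 and 40, with 31 in 2 or more lists; alone without leucine and alone in complete medium were 73 and 13 in WT and 33 and 38 in KO cells, and alone in KO and alone in WT were 38 and 15 in complete medium and 25 and 67 without leucine. The KO split between media thus turned from more genes without leucine to more in complete medium. With the higher-scoring 50% of each list, the genes numbered 33, 75, 36 and 45, with 27 in 2 or more lists, the shares at a shared site were 21.2% (WT without leucine), 26.2% and 25.0% (KO), and the genes alone were 60 and 18 in WT and 35 and 26 in KO cells by medium, 27 in KO cells alone in complete medium, and 31 in KO and 61 in WT cells without leucine. With 2336 peaks per list, genes numbered 56 in WT and 45 in KO cells without leucine, 36 were in 2 or more lists, shares at a shared site were 30.0% and 27.1% in the lists without leucine, and genes alone without leucine and alone in complete medium were 38 and 39 in WT and 33 and 50 in KO cells, so that the excess without leucine was gone in WT and turned in KO cells; without leucine, 32 were in KO and 43 in WT cells alone. The construction of these settings, with fewer peaks, lowers the counts; no other cause was tested. Without repeat windows and with main chromosomes only, changed together, the median rank in WT cells without leucine was 49.5%. A reciprocal overlap of 50% and windows widened by 500 bp moved no value beyond its limits. Without peaks whose gene the gene table places elsewhere, a setting chosen after seeing the data, genes numbered 54, 136, 80 and 84, with 72 in 2 or more lists. No paired analysis was possible because each group has 1 library, and no replicate could be left out. Depth limits every absence from a list: the read totals are unknown, and a peak under the threshold is not listed.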
